A study of Mus musculus with 8 samples.

Results

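Complement is a set of plasma and cell surface proteins that tags microbes and dying cells, draws in leukocytes and punctures membranes. Its genes were examined in gallbladder RNA of leptin-deficient mice given leptin or saline. The list held 34 genes: components of the classical, lectin, alternative and terminal steps, the receptors for their fragments, and the regulators that restrain them. A member was any probe set whose annotated mouse gene symbol was 1 of these and no other. This found 50 probe sets for 31 of the 34 genes, out of 18193 genes with such a probe set on the array. C3, C4b and Cfd, which had no probe set under that symbol alone in the annotation used here, were not analysed. Of the 31, 29 were bright enough to be tested, each by its brightest probe set, and C5ar1 and Cr2 were not.

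All mice were female, lacked functional leptin in both groups through the ob mutation of its gene (strain B6.V-lep ob) and were 12 weeks old when the gallbladder was removed, after an overnight fast. The leptin group received recombinant mouse leptin at 5 µg per g body weight into the peritoneum each day for 4 weeks, and the saline group received saline in the same way. Each group had 12 mice, and RNA was taken from pools of 3 gallbladders, which gave leptin pools 5 to 8 and saline pools 1 to 4. Pools were the replicates (n = 4 in each group), so p-values measure the spread between pools, and the spread between animals within a pool was not seen. Each pool was read on 1 Affymetrix mouse array of 45101 probe sets, whose values are MAS 5.0 signals, an intensity on a linear scale.

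In the classical pathway, C1q binds antibody or dying cells, and its proteases C1r and C1s cleave the next components. The lectin pathway starts from mannose-binding lectins or ficolins with their MASP proteases, and the alternative pathway is amplified by factor B and stabilised by properdin. All meet at C3 and C5, after which C6 to C9 assemble into the membrane attack complex. Hepatocytes make most circulating components, including nearly all lectin and terminal ones, while macrophages and other myeloid cells are the known main source of C1q and properdin and carry receptors for complement fragments.

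Leptin pools had higher signals of the C1q chains, properdin, the receptor genes Itgam, Itgb2 and C3ar1, the C1 proteases and the C8 alpha chain than saline pools, and lower ones of C9. Of the 29 tested members, 10 rose, 1 fell and 18 did not pass the test, which was limma with p-values adjusted by Benjamini-Hochberg over the 22519 probe sets tested and a threshold of 0.05. These 11 are 37.9% of the tested members, whereas the same rule called 8.27% of the 11719 tested genes, with 4.29% higher and 3.98% lower. The same 11 members were those whose leptin pools all lay on one side of the saline pools, a pattern found in 17.0% of all tested genes. The median log2 fold change, leptin minus saline on the scale of log2(signal + 8.20), was 0.49 over the 29 members and 0.02 over all tested genes. When each array was centred on the median of all its probe sets, 8 members were higher and 2 lower. That centring took out a shift of 0.25 between the groups and turned the split over all probe sets into 406 higher and 3586 lower, against 798 higher and 763 lower in the main scaling. Centred on the tested probe sets alone (shift 0.08), the split was 619 higher and 1322 lower, and 8 members were higher and 1 lower.

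**Figure D1:**
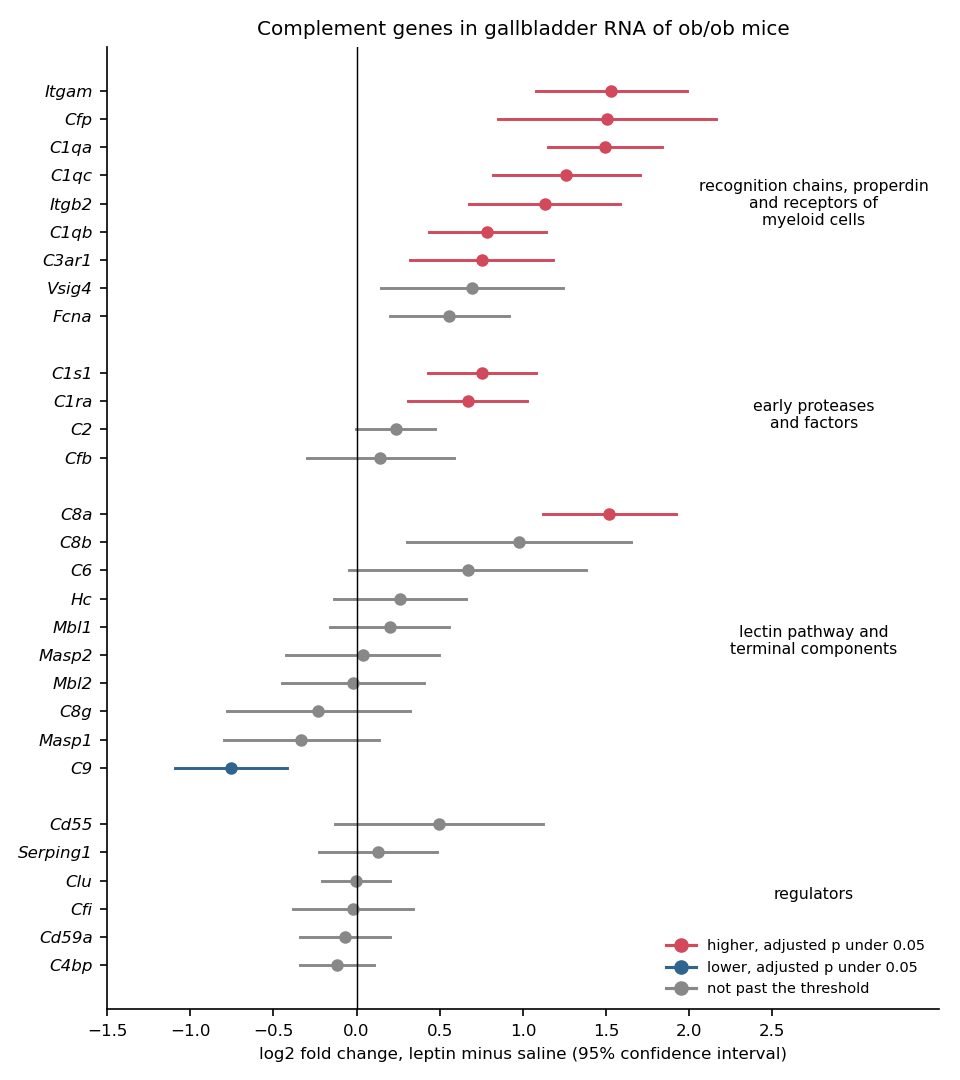
Log2 fold change of the 29 tested complement genes (x axis, leptin minus saline) with 95% confidence intervals from limma, by group of genes (rows). Red points passed as higher, the blue point passed as lower and grey points did not pass; 7 of the 10 red points are recognition chains, properdin and receptors of myeloid cells, and C9 is the blue one.

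The arrays of the groups also differed in general measures. The median signal was 94 to 107 in leptin pools and 77.8 to 87.3 in saline pools, and 68.4% to 71.0% of probe sets in leptin pools and 63.3% to 66.9% in saline pools lay above the background signal of 46.0. The ratio of actin signal at the 3′ end over that at the 5′ end, which rises as RNA degrades, was 1.67 to 2.17 in leptin pools and 1.50 to 1.68 in saline pools. With this ratio as a covariate, 4 members were called higher and 1 lower, and 3.51% of all tested genes were called. All leptin pools except leptin 7 had a higher ratio than every saline pool, so ratio and treatment cannot be fully told apart in this fit. The part of the ratio in the results was not tested further. The tissue named in the labels was checked against markers. Hepatocyte transcripts were present in both groups: albumin (Alb) had a signal of 18355 to 19377 in leptin pools and 14896 to 21696 in saline pools. The gallbladder epithelium markers Krt19 and Epcam were bright in both groups too, at 5451 to 6962 and 2785 to 2956 in leptin pools and at 7023 to 9334 and 2337 to 3330.0 in saline pools.

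The 3 chains of C1q, the molecule that starts the classical pathway, rose together. C1qa, the A chain, had a signal of 1122, 1007, 1006 and 1314 in leptin pools 5 to 8, against 425, 465, 287 and 394 in saline pools 1 to 4. The lowest leptin pool lay far above the highest saline pool, and the fitted change was 2.82-fold (log2 1.50 ± 0.16 SE, adjusted p = 0.000117, limma). C1qc, the C chain, gave 988, 713, 886 and 1197 in leptin pools and 266, 485, 482 and 345 in saline pools. The groups did not overlap, leptin 6 was the lowest leptin pool, and the change was 2.40-fold (log2 1.26 ± 0.20 SE, adjusted p = 0.00312, limma). C1qb, the B chain, was read by 3 probe sets. The brightest had 841, 769.8, 1225 and 1194 in leptin pools and 561.5, 495, 609 and 618 in saline pools, with no overlap and a log2 change of 0.79 ± 0.16 (SE, adjusted p = 0.0126, limma). The other probe sets of C1qb rose by 0.90 and 0.69 on the log2 scale (adjusted p = 0.00594 and 0.00483, limma), so all 3 passed. With the actin ratio as a covariate C1qa and C1qb kept their calls by the brightest probe set. The other probe sets of C1qb then had adjusted p = 0.140 and 0.126, and C1qc had a log2 change of 0.90 (adjusted p = 0.108, limma).

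**Figure D2:**
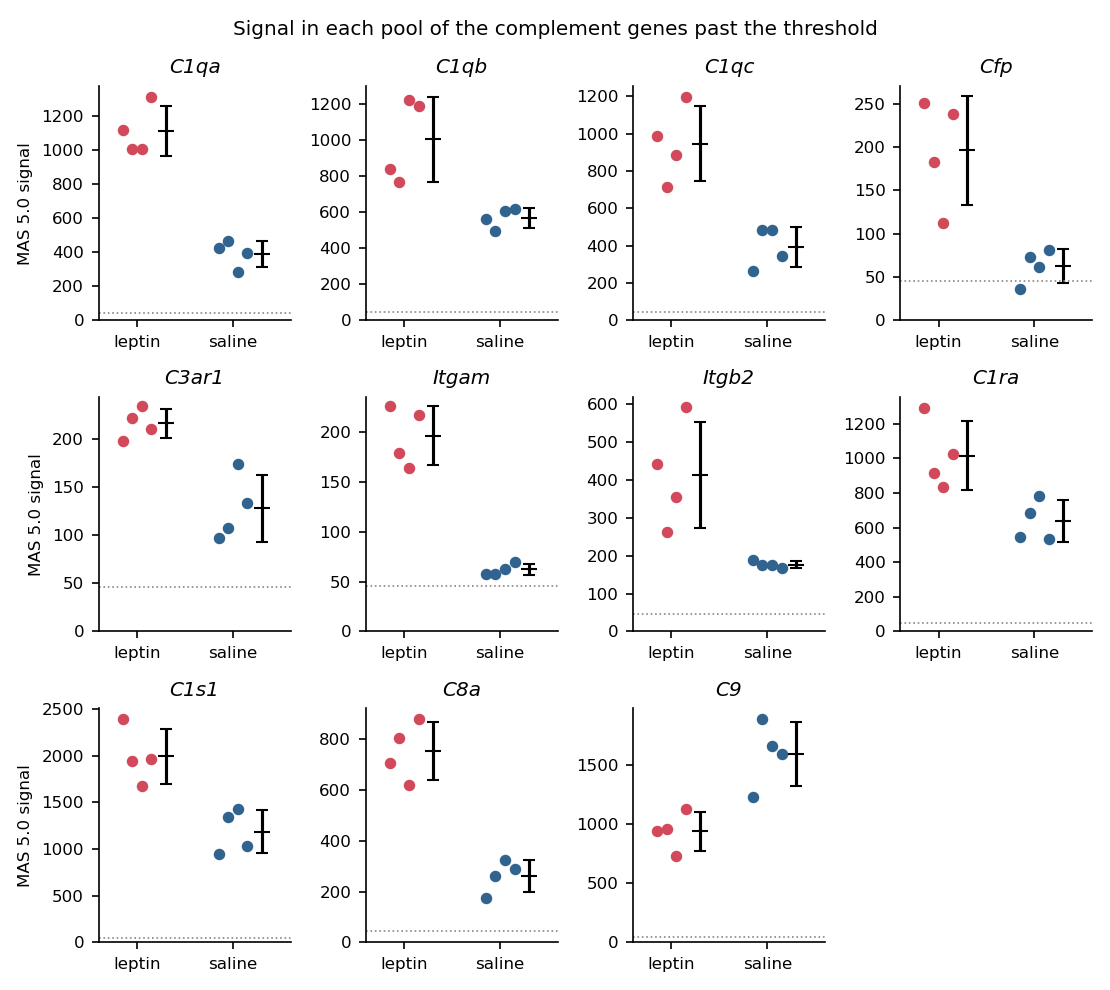
MAS 5.0 signal (y axis, linear, starting at 0) of the 11 complement genes that passed, in each of the 4 leptin pools (red) and 4 saline pools (blue), with the mean and SD beside each group in black; the dotted line is the background signal of 46.0. In all 11 panels the groups do not overlap, and in C9 alone the leptin pools are the lower ones.

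The C1q chain genes are neighbours on mouse chromosome 4, in the order C1qb, C1qc, C1qa with no other protein-coding gene between them. Because they moved together, the start regions of C1qb and C1qc are shown (RefSeq, build GRCm38.p6, 250 bases before to 50 bases after the start, both on the minus strand). They lie at chr4:136886151-136886450 and chr4:136892865-136893164. Capitals mark the letters GAGGAA, a core that the myeloid factor PU.1 is known to bind, or their reverse complement.
C1qb: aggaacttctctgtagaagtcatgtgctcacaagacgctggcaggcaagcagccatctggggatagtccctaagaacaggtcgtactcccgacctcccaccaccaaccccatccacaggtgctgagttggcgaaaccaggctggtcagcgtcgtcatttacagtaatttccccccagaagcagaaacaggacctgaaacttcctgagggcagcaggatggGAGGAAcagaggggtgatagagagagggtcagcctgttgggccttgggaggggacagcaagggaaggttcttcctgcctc
C1qc: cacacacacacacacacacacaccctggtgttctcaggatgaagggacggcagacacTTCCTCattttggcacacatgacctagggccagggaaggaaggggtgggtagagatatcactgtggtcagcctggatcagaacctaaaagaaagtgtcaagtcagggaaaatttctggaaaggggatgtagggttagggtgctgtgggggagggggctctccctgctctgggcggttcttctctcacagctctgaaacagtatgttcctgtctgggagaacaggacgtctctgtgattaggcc
The match starts 30 bases before the start of C1qb and 193 bases before that of C1qc, where it lies on the strand opposite to the gene. Over both strands, these letters were in 8 of the 25 member windows, against 28.3% of all 32817 windows. The 8 were 6 of the 8 windows of members from the myeloid group (C1qb, C1qc, Cfp, Fcna, Itgam and Vsig4), C1ra and Cd59a. None of the 9 windows of lectin and terminal members held them. A match is a description of the letters and not a site.

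Properdin and 3 of the 5 receptor genes of myeloid cells also rose (Itgam, Itgb2 and C3ar1), while Vsig4 did not pass and C5ar1 was not tested. Cfp encodes properdin, the plasma protein that stabilises the alternative pathway convertase. It had a signal of 250.5, 183, 112 and 239 in leptin pools and 35.8, 73.4, 62.1 and 81.2 in saline pools. Leptin 7 was the lowest leptin pool, saline 1 lay under the background, and the groups did not overlap (2.84-fold, log2 1.51 ± 0.30 SE, adjusted p = 0.0110, limma). Adding the actin ratio as a covariate gave Cfp a log2 change of 0.83 (adjusted p = 0.284, limma). A dimmer probe set of Cfp was not tested and gave 33.3 to 137 in leptin pools and 64.9 to 154 in saline pools, so the probe sets disagreed.

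Itgam and Itgb2 encode the alpha and beta chains of CR3 (CD11b/CD18), the receptor by which phagocytes take up particles coated with a C3 fragment. Itgam had 226, 179, 164 and 217 in leptin pools and 57.9, 57.8, 63.0 and 69.9 in saline pools. The saline pools lay close together and just above background, all far under the leptin pools (2.89-fold, log2 1.53 ± 0.21 SE, adjusted p = 0.000873, limma). Itgb2, which pairs with other alpha chains as well, had 443, 262, 356 and 591 in leptin pools and 188, 174, 175 and 168 in saline pools. Leptin pools spread more (SD 140.0, n = 4) than saline pools (SD 8.31, n = 4) without overlap, and the log2 change was 1.13 ± 0.21 (SE, adjusted p = 0.00736, limma). It was 0.96 ± 0.32 (SE, adjusted p = 0.131, limma) with the actin ratio as a covariate, not past the threshold. Itgax, the alpha chain of the related receptor CR4 and no member of the list, rose most of the complement genes examined, with 340.0, 236, 254 and 263 in leptin pools and 108, 66.6, 53.1 and 49.7 in saline pools (log2 1.90 ± 0.24 SE, adjusted p = 0.000531, limma).

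C3ar1 is the receptor for the fragment C3a, which attracts and activates leukocytes. Its brightest probe set had 197, 221, 234 and 210.5 in leptin pools and 96.6, 107, 174 and 133 in saline pools. The lowest leptin pool stood above saline 3, the highest saline pool, by a small distance, and the log2 change of 0.75 ± 0.20 (SE) passed with an adjusted p of 0.0402 (limma). This call was lost on leaving out leptin 5, 6, 7 or 8 (adjusted p = 0.0665, 0.0911, 0.0748 and 0.0810, limma) and saline 1, 2 or 4 (0.0860, 0.108 and 0.0730). With all 8 pools kept it was also lost under quantile scaling and loess (adjusted p = 0.095 and 0.092, limma). Centring on the median of all and of tested probe sets gave 0.084 and 0.0555, no filter on dim probe sets 0.082, and the actin covariate 0.231. The other tested probe set of C3ar1 gave 201, 143, 272 and 203 in leptin pools and 92.3, 89.0, 50.8 and 74.0 in saline pools, with a log2 change of 1.33 ± 0.25 (SE, adjusted p = 0.00787, limma). Another probe set, untested, was at least 2.04-fold higher with leptin, with 2 saline pools set at the background. Its groups overlapped, with 104 in saline 3 against 95.1 and 92.9 in leptin 5 and 6. C5ar1, the receptor for C5a, was too dim to test: 71.3, 46.4, 65.4 and 78.4 in leptin pools, against 24.3, 89.9, 58.8 and 37.0 in saline pools, which overlap.

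Fcna and Vsig4 mark tissue macrophages. Fcna encodes ficolin A, a lectin pathway recognition protein, and had 458, 393, 324 and 411 in leptin pools and 226, 281, 332 and 232 in saline pools. Leptin 7 lay just under saline 3, so the groups overlapped, and the log2 change of 0.56 ± 0.16 (SE) did not pass (adjusted p = 0.0600, limma). Vsig4 encodes CRIg, a receptor for C3 fragments on resident macrophages such as Kupffer cells of the liver. Its signal was 421, 316, 339 and 438 in leptin pools and 122, 316, 301 and 232.5 in saline pools, with saline 1 apart at the low end (log2 0.70 ± 0.25 SE, adjusted p = 0.120, limma).

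Of the 10 genes in this myeloid group, 9 were tested and 7 rose, with a median log2 fold change of 1.13. Over all tested genes, 4.29% were called higher. Markers of macrophages moved with them. Of 14 tested macrophage markers 10 rose (median log2 1.05), and the summed signal of the list was 10460 to 12150 in leptin pools and 4523 to 6224 in saline pools. The defining markers Adgre1 (F4/80), Csf1r and Cd68 rose by 1.02 ± 0.19, 1.09 ± 0.14 and 0.78 ± 0.17 on the log2 scale (SE, adjusted p = 0.00819, 0.000636 and 0.0162, limma). Of 5 tested neutrophil markers 4 rose, and the list's summed signal was 3839 to 6559 in leptin pools and 716.7 to 1256 in saline pools. Among its defining genes Ltf rose by 2.90 ± 0.29 (SE, adjusted p = 7.85e-05, limma), Ngp had a change of 0.00 ± 0.22 (SE, adjusted p = 0.999, limma), and Camp lay under background in all 8 pools. With the actin ratio as a covariate, 3 of the 9 myeloid members and 4 of the macrophage markers were called higher. In that fit 3.51% of all tested genes were called in either direction. Csf1r stayed past the threshold, and Adgre1 and Cd68 did not (adjusted p = 0.215 and 0.207, limma). In RNA of a whole organ, more cells of a type and more RNA per cell cannot be told apart, and the part of these cell types in the complement result was not tested.

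C1ra and C1s1, the mouse C1r and C1s proteases that C1q activates, rose together and are adjacent genes on chromosome 6. C1s1 had 2395, 1943, 1678 and 1968 in leptin pools and 951, 1341, 1430.5 and 1029 in saline pools. All leptin pools were higher, with a log2 change of 0.75 ± 0.15 (SE, adjusted p = 0.0109, limma). C1ra had 1292, 916, 832 and 1026 in leptin pools and 543, 686, 785 and 531 in saline pools. Leptin 7 stood only just above saline 3, and the log2 change was 0.67 ± 0.16 (SE, adjusted p = 0.0295, limma). The C1ra call was lost on leaving out leptin 5, 6 or 8 (adjusted p = 0.0754, 0.0554 and 0.0715) or saline 1, 2 or 4 (0.0686, 0.0541 and 0.0846). With the actin ratio as a covariate, neither was called: the log2 change was 0.32 for C1s1 (adjusted p = 0.307, limma) and 0.18 for C1ra (adjusted p = 0.610, limma). The fibroblast markers, from a cell type known to make both proteases, had a median log2 change of 0.33, and limma called 0 of 5 (3 higher at an unadjusted p under 0.05).

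C2 and Cfb, adjacent genes on chromosome 17, encode the proteases of the classical and the alternative C3 convertase. For C2, the brightest probe set had 1552, 1579, 1336 and 1529 in leptin pools and 1160.4, 1412, 1183 and 1338 in saline pools. Leptin 7 fell within the saline range, and the log2 change was 0.24 ± 0.11 (SE, adjusted p = 0.218, limma). In both other probe sets of C2 the groups did not overlap, with log2 changes of 0.46 ± 0.14 and 0.54 ± 0.16 (SE, adjusted p = 0.0609 and 0.0660, limma), neither past the threshold. Cfb had 2309, 2013, 1368 and 2259.7 in leptin pools and 1277, 2098, 2395 and 1501 in saline pools, a full overlap (log2 0.14 ± 0.21 SE, adjusted p = 0.715, limma).

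**Figure D3:**
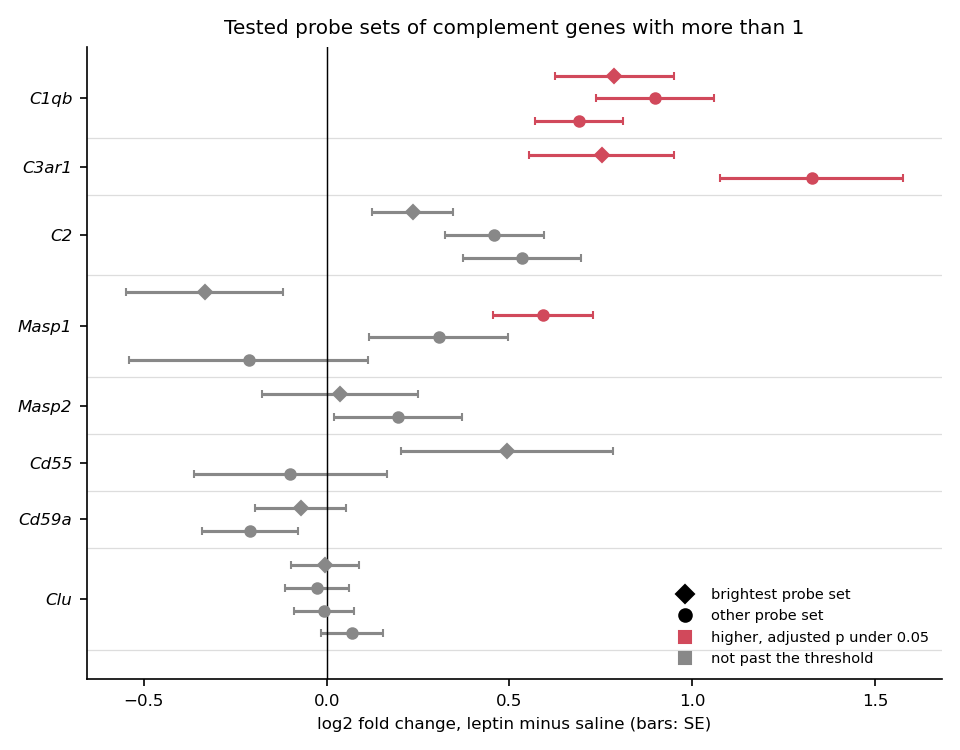
Log2 fold change (x axis, leptin minus saline, bars SE) of every tested probe set of the 8 complement genes that have more than 1. Diamonds are the brightest probe set and circles the others, red where the adjusted p was under the threshold; all 3 of C1qb and both of C3ar1 are red, and 1 of the 4 of Masp1, on the other side of 0 from its brightest.

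The 10 lectin pathway and terminal genes, which the liver is known to make, mostly did not pass the test. C8a rose, C9 fell and 8 did not pass, with a median log2 change of 0.12. C8a encodes the alpha chain of C8, which inserts into the membrane and lets C9 assemble. It had 707, 806, 620.5 and 881 in leptin pools and 175, 260.3, 323 and 288 in saline pools. The lowest leptin pool lay far above the highest saline pool, and the change was 2.87-fold (log2 1.52 ± 0.19 SE, adjusted p = 0.000376, limma).

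C8b, the beta chain, had 378, 219.6, 144.5 and 375 in leptin pools and 82.3, 157, 182 and 112.5 in saline pools. Leptin 5 and 8 were high, leptin 7 lay within the saline range, and the log2 change of 0.98 ± 0.31 (SE) did not pass (adjusted p = 0.0798, limma). C8g, the gamma chain, which belongs to another protein family and binds through C8 alpha, had 2227, 2028, 1221 and 2640.3 in leptin pools and 1358, 2861, 2956 and 2407 in saline pools. The groups overlapped (log2 -0.23 ± 0.26 SE, 95% interval -0.78 to 0.32, adjusted p = 0.628, limma).

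C9, the unit of which many copies line the pore, went the other way. Its signal was 944, 961, 730.4 and 1133 in leptin pools and 1234, 1892, 1666 and 1591 in saline pools. Leptin 8 and saline 1 came nearest, without overlap, and C9 fell by 0.76 ± 0.16 on the log2 scale (SE, adjusted p = 0.0126, limma). C8a and C9 kept their calls in all 22 other settings tried. Each had 1 probe set, so the setting that chose another probe set could not change them. C6, which joins the complex before C8, had 186, 120.5, 299 and 113 in leptin pools and 69.2, 74.8, 146 and 139 in saline pools, with leptin 7 the highest (log2 0.67 ± 0.33 SE, adjusted p = 0.243, limma). Hc, the mouse gene of C5, had 2318, 1903, 1629 and 2328 in leptin pools and 1228, 2031, 2227 and 1463 in saline pools (log2 0.26 ± 0.18 SE, adjusted p = 0.422, limma). The groups overlapped in C6 and in Hc.

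C8a and C8b are adjacent on chromosome 4, and C9 lies on chromosome 15. The start regions of all 3 are shown because C8a and C9 passed in opposite directions and C8b is the neighbour of C8a (RefSeq, GRCm38.p6, C8a on the minus strand, C8b and C9 on the plus strand). They lie at chr4:104876349-104876648, chr4:104766067-104766366 and chr15:6445096-6445395. Capitals mark GTTAAT, one arm of the site of the liver factor HNF1, or its reverse complement, and TTCNNNGAA, the form that STAT factors such as the leptin receptor's STAT3 are known to bind.
C8a: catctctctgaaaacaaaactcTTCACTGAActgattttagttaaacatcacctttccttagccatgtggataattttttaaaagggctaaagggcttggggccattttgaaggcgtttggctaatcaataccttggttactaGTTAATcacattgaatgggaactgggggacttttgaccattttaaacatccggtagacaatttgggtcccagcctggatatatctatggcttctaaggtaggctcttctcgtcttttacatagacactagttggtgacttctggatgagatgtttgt
C8b: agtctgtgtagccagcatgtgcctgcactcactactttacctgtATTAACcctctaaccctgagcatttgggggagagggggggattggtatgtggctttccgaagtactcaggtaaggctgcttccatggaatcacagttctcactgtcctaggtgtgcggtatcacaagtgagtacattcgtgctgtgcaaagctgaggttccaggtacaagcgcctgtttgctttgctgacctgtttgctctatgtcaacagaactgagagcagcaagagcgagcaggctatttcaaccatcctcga
C9: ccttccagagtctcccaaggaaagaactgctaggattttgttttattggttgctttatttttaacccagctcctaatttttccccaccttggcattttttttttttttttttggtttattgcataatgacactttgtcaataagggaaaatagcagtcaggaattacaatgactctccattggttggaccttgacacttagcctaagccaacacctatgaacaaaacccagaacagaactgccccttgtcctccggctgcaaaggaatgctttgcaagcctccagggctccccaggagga
C8a holds TTCNNNGAA from 228 bases and GTTAAT from 107 bases before its start, C8b holds GTTAAT on the opposite strand from 206 bases before, and the window of C9 held neither. The matches shown do not overlap one another. GTTAAT was in 3 of the 9 lectin and terminal windows (C8a, C8b and Hc), in 8 of the 25 member windows and in 7.1% of all windows. TTCNNNGAA was in 3 of the 25 (C1ra, C8a and Masp2) and in 8.29% of all windows.

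None of the other lectin pathway genes passed by its brightest probe set. Mbl1 and Mbl2, the mannose-binding lectins that read sugars on microbes, had log2 changes of 0.20 ± 0.17 and -0.02 ± 0.20 (SE, adjusted p = 0.503 and 0.967, limma). Mbl2 was the brighter signal, with 2261, 2376, 1642 and 2475 in leptin pools and 1416, 2645, 2811 and 2186 in saline pools, a full overlap. Masp2, the protease that cleaves C4 and C2 in this pathway, had a log2 change of 0.04 ± 0.21 (SE, 95% interval -0.42 to 0.50, adjusted p = 0.939, limma).

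Masp1, a gene with several splice products that encode the proteases MASP-1 and MASP-3 and a shorter protein, gave probe sets that disagreed. The brightest had 534, 509.6, 340.2 and 526 in leptin pools and 405, 762, 779.5 and 518 in saline pools, with leptin 7 apart at the low end (log2 -0.33 ± 0.22 SE, adjusted p = 0.379, limma). Another had 421.5, 357.5, 483 and 426 in leptin pools and 269.7, 297, 279.7 and 258 in saline pools. Its groups did not overlap, and it rose by 0.59 ± 0.14 on the log2 scale (SE, adjusted p = 0.0222, limma). Of the 4 tested, 2 had positive and 2 negative fold changes. Which transcripts the probe sets read was not analysed here.

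Hepatocyte markers were set beside these genes. The 15 tested hepatocyte markers had a median log2 change of 0.02, and limma called 0 in either direction (1 lower at an unadjusted p under 0.05). Their summed signal was 131100 to 164400 in leptin pools and 112600 to 182800 in saline pools. Alb, Ahsg and Fgb had log2 changes of 0.05, 0.15 and 0.02, and Apob had -0.53 (adjusted p = 0.836, 0.670, 0.962 and 0.200, limma). The mean deviation of the 15 markers was lowest in saline 1 (-0.45) and leptin 7 (-0.30), and between -0.04 and 0.28 in the other 6 pools. Most liver-type complement genes followed this profile: saline 1 was the lowest saline pool in 10 of 10, and leptin 7 the lowest leptin pool in 9 of 10, C6 being the exception. Both held in 9 of 10, against 9.91% of all tested genes. The same was true of 11 of the 15 hepatocyte markers and of 16 of the 31 members. It held in 3 of the 4 genes C1ra, C1s1, C2 and Cfb, in 2 of the 6 regulators and in 2 of the 10 myeloid genes.

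**Figure D4:**
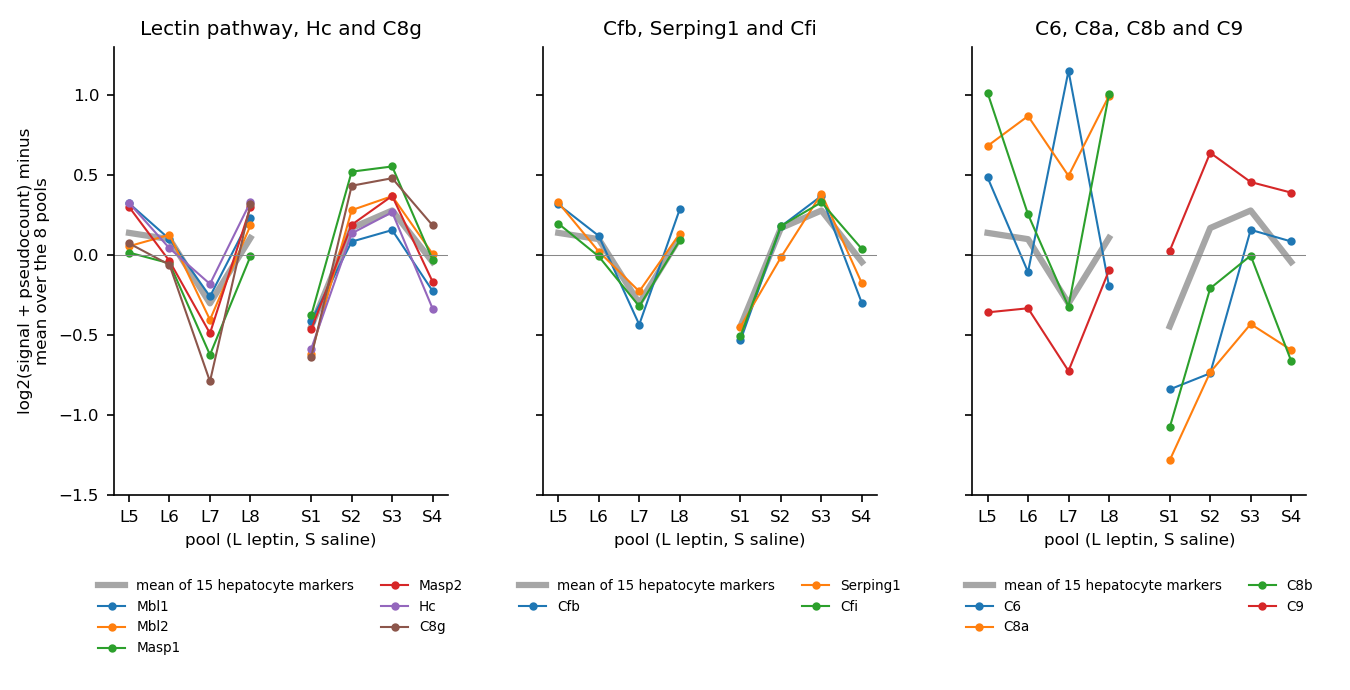
Log2(signal + 8.20) of each gene minus its mean over the 8 pools (y axis) in leptin pools L5 to L8 and saline pools S1 to S4 (x axis); the thick grey line is the mean of 15 hepatocyte markers. Lines of the left and middle panels are lowest in L7 and S1 within their group, as the grey line is, and some fall below it there, C8g furthest in L7. In the right panel, where C6, C8a, C8b and C9 were placed apart, C8a lies above the grey line in all leptin pools and C9 in all saline pools. Of the regulators, C4bp, Clu, Cd59a and Cd55 are not shown, and none of these was lowest in both L7 and S1. C1ra, C1s1 and C2 are not shown either.

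With the hepatocyte mean as a covariate, an alternative chosen after these values were seen, the fitted changes of the 29 members moved by at most 0.039 on the log2 scale, and the SE was smaller for 24 of them. The markers had a median log2 change of 0.02 between the groups, so a covariate made from them could move fitted changes only little. The part of liver RNA in the group difference was not tested by this fit. C8a had a log2 change of 1.50 ± 0.14 and C9 of -0.77 ± 0.11 (SE, adjusted p = 2.93e-05 and 0.000933, limma). C8b passed in this fit, at 0.94 ± 0.21 (SE, adjusted p = 0.0147, limma), as did Fcna at 0.54 ± 0.14 and Vsig4 at 0.67 ± 0.17 (SE, adjusted p = 0.0273 and 0.0321, limma). In all, 13 members were higher and 1 lower, while 11.5% of all tested genes were called in that fit. C8b also passed on leaving out leptin 7 (log2 1.25, adjusted p = 0.0198, limma) and Fcna on leaving out leptin 7 or saline 3 (adjusted p = 0.0384 and 0.0419, limma). With the actin ratio as a covariate C8a had 1.28 ± 0.27 and C9 -1.05 ± 0.21 (SE, adjusted p = 0.0245 and 0.0194, limma), and C8b had 0.02 ± 0.32 (SE, adjusted p = 0.985, limma).

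**Figure D5:**
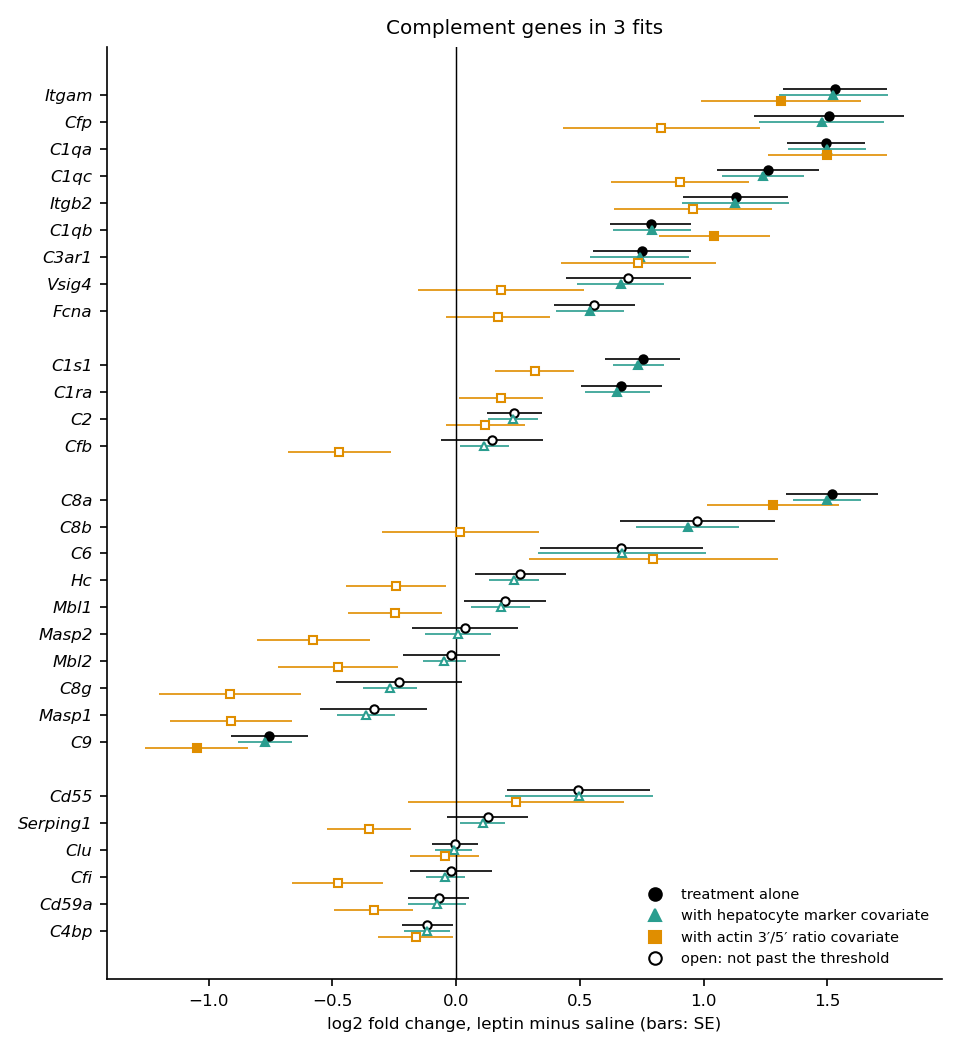
Log2 fold change (x axis, leptin minus saline, bars SE) of the 29 tested complement genes in 3 fits: treatment alone (black circles), with the mean of hepatocyte markers as a covariate (green triangles) and with the actin 3′/5′ ratio as a covariate (orange squares); open symbols did not pass. C1qa, C1qb, Itgam, C8a and C9 are filled in all 3 fits, and most other orange squares lie left of the black circles.

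None of the 6 regulators passed with limma, and 0 of them had an unadjusted p under 0.05. Serping1, the inhibitor of C1 proteases, C4bp, a cofactor for the breakdown of C4b, and Cfi, the protease that cuts C3b and C4b, are secreted. Their log2 changes were 0.13 ± 0.16, -0.12 ± 0.10 and -0.02 ± 0.17 (SE, adjusted p = 0.679, 0.526 and 0.957, limma). C4bp had 6675, 6183, 6121 and 5734 in leptin pools and 6150.4, 6185, 6615 and 7961 in saline pools, and its saline 1 and leptin 7 pools were not apart from the rest. It became a lower call (log2 -0.37, adjusted p = 0.0460, limma) when arrays were centred on the median of all probe sets. Serping1 had 3539.8 to 5207 in leptin pools and 3036 to 5409.8 in saline pools, and Cfi 3122 to 4472 and 2739.8 to 4902, each lowest in leptin 7 and saline 1.

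Clu encodes clusterin, which blocks assembly of the terminal complex and has other roles in lipid transport. It was the brightest member, at 19810.4, 19742, 21453 and 20222 in leptin pools and 17368, 20732, 23116 and 20614 in saline pools. Leptin pools lay inside the saline range, and the 4 probe sets had log2 changes from -0.03 to 0.07, with adjusted p from 0.657 to 0.985 (limma). Cd59a, the membrane inhibitor of C9 assembly, had 1872, 1579.9, 1291 and 1385 in leptin pools and 1521, 1649.6, 1516 and 1696 in saline pools (log2 -0.07 ± 0.12 SE, 95% interval -0.34 to 0.20, adjusted p = 0.773, limma). Cd55, which breaks up C3 convertases on cells, had 223, 131, 127 and 199 in leptin pools and 154.5, 61.5, 147 and 122 in saline pools (log2 0.49 ± 0.29 SE, adjusted p = 0.330, limma). A second probe set of Cd55 gave -0.10 ± 0.26 (SE, adjusted p = 0.858, limma), and another, too dim to test, had 89.4 to 146 in leptin pools and 27.0 to 70.1 in saline pools without overlap.

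Cr2, the receptor for C3d on B cells and follicular dendritic cells, was too dim to test. It had 86.3, 103, 37.6 and 46.4 in leptin pools and 49.6, 54.0, 24.3 and 37.4 in saline pools, an overlap, and was at least 1.29-fold higher with leptin where 2 saline pools were set at the background. Of 6 B cell markers with a probe set, 2 were tested and 1 rose. This was Ms4a1, with 279.9, 295, 259 and 266 in leptin pools and 96.1, 105, 114 and 92.6 in saline pools (log2 1.36 ± 0.16 SE, adjusted p = 0.000301, limma). The other tested marker had a log2 change of 0.80 ± 0.32 (SE, adjusted p = 0.151, limma). Among those too dim to test, some overlapped between the groups and others did not. Cd79a, one of the dim ones, had 122 to 168 in leptin pools and 3.1 to 11.0 in saline pools, all below background there.

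Among 23 further complement genes outside the list, 17 had a probe set and 13 were tested. Of these 2 rose, 1 fell and 10 did not pass, with a median log2 change of 0.17. Over all tested genes, 4.29% were called higher and 3.98% lower. Besides Itgax, Colec12, a collectin and scavenger receptor on the cell surface, rose. It had 286, 313, 268 and 270.0 in leptin pools and 182, 164, 186 and 137 in saline pools (log2 0.74 ± 0.16 SE, adjusted p = 0.0140, limma). C1qbp, a mitochondrial protein named for binding C1q, fell by 0.36 ± 0.09 on the log2 scale (SE, adjusted p = 0.0322, limma), with 3909, 3764, 3544 and 3698 in leptin pools and 4484, 4521, 5094 and 5048 in saline pools. In all 3 the groups did not overlap, and the second probe set of C1qbp also passed as lower (log2 -0.55, adjusted p = 0.0461, limma). With the actin ratio as a covariate Colec12 and both probe sets of C1qbp were not called (adjusted p = 0.160, 0.0884 and 0.192, limma), and without the filter on dim probe sets those of C1qbp were not (0.0784 and 0.0679).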

How the data were processed

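The authors deposited 1 intensity per probe set for each of the 8 arrays (4 leptin and 4 saline pools), a MAS5 signal per the submitters' processing notes. For its version, detection calls and scan dates, the entry is "not given in the sources used here", and no batch could be examined. Every array in the deposited table had a 2% trimmed mean of 250.001, which hides any change common to all transcripts.

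Signals were rescaled to that mean and used as log2(signal + 8.20), the added value being the 10th percentile over the table. After removal of 64 control probe sets, those whose mean log2 value reached the median (22519) were fitted with lmFit and eBayes (trend) of limma 3.58.1, run in R 4.3.3. Tests were two-sided, adjusted by Benjamini-Hochberg, at a threshold of 0.05. The array annotation gave 34958 probe sets 1 symbol, 932 several and 9211 none in the table used here; Entrez identifiers gave current symbols in GRCm38.p6. The brightest probe set with 1 symbol stood for its gene. Background (46.0) was the 95th percentile of 27 control probe sets for bacterial RNA that was not spiked in. A fold is called "at least" where 2 or more pools of a group lay under background and were raised to it. No 2 arrays were identical (mean absolute log2 difference 0.46 to 0.69). Named were all members, the called ones of 23 other complement genes, and the defining markers of cell types. Members and lists were chosen with earlier results of these data known. Alternatives varied scaling, pseudocount, filter, variance model, array weights, covariates and probe set, and left out each pool. Simulated data with known changes were used to check the fit.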

Additional observations from a re-analysis of the deposited data

Results flagged for a closer look

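The brightest probe set of Masp1 had a signal of 340.2 in leptin 7, against 509.6 to 534.3 in the other leptin pools, a gap of 0.873 of the whole range of the group, above Dixon's critical value for 4 samples. Of 62 groups of 4 pools looked at, 1 lay past that value, and chance alone passes about 1 in 20 groups, or 3.1 of 62. Leptin 7 was also the lowest leptin pool in the hepatocyte markers (mean deviation -0.30); its part in the Masp1 value was not tested.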

How the results depend on the processing

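No paired analysis was possible because leptin pools 5 to 8 and saline pools 1 to 4 share no number. C1qa, C1qb, C8a and C9 kept their calls in every setting run, and Itgam in all that tested it; the filter at the 75th percentile left out Itgam, Cfp, C3ar1, C6, C8b and Cd55. Among settings that tested them, C1qc, Cfp, Itgb2 and C1s1 lost theirs with the actin covariate alone (adjusted p = 0.108, 0.284, 0.131 and 0.307), and C1ra and C3ar1 in 10 of 22 and 13 of 21 settings. Over all probe sets 3992 were called with median centring and 654 with the actin covariate, against 1561; leaving out 1 pool gave 884 to 1431 (leptin 5, 6 and 8: 1028, 884 and 985, and saline 2 and 4: 892 and 943). Complement genes called higher numbered 4 with the actin covariate and 8 to 11 on leaving out a pool, and those called lower 2 with median centring. All sign changes were in genes not called by their brightest probe set. The probe set of smallest p gave 0.59 for Masp1, a call, and 0.070 for Clu. Quantile scaling gave 0.12 for Mbl2, 0.13 for Cfi and 0.036 for Cd59a, and loess gave 0.10, 0.12 and 0.035, with C4bp at 0.041 and Clu at 0.18. Median centring gave -0.014 for C2, -0.11 for Cfb, -0.051 for Mbl1, -0.21 for Masp2 (-0.045 on the tested probe sets) and -0.12 for Serping1. The actin covariate gave -0.47 for Cfb, -0.25 for Mbl1, -0.58 for Masp2, -0.24 for Hc and -0.35 for Serping1. Leaving out 1 pool spanned -0.23 to 0.11 for Mbl2, -0.19 to 0.086 for Cfi, -0.17 to 0.0059 for Cd59a, -0.010 to 0.31 for Cfb, -0.080 to 0.057 for Clu and -0.11 to 0.21 for Masp2. The cause of these changes was not tested. Of 632 single-gene comparisons over all settings, 557 kept direction and side of the threshold. For genes with 1 tested probe set, the choice of the probe set of smallest p repeated the main fit and could not differ. C5ar1 and Cr2, near the background of 46.0, were tested only without the filter, with log2 changes of 0.38 and 0.58 (adjusted p = 0.694 and 0.534).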

Other observations

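Some markers of cell types that are not sources of most complement genes also differed between the groups. Krt7, a keratin of bile duct and gallbladder epithelium, fell by 0.96 ± 0.16 on the log2 scale (SE, adjusted p = 0.00408, limma), with 1072 to 1656 in leptin pools and 2239.8 to 3279 in saline pools. Its log2 change was -0.46 (adjusted p = 0.140, limma) with the actin ratio as a covariate. Of the 8 epithelial markers 2 fell (0 with that covariate, limma) and 6 did not pass, Epcam among them (log2 change -0.006). The summed signal of the 8 was 23630 to 27370 in leptin pools and 28680 to 35670 in saline pools. Leptin's own transcript (Lep), which in fat cells of ob/ob mice is made without functional protein, had 17.9, 52.9, 73.7 and 46.5 in leptin pools and 579.7, 221, 198 and 48.0 in saline pools (log2 -1.94 ± 0.57 SE, adjusted p = 0.0605, limma). Of 7 tested adipocyte markers (median log2 change -0.58), 1 fell and 5 were lower at an unadjusted p under 0.05. The one that fell was Cidec, a lipid droplet protein named here after its values were seen (log2 -2.03 ± 0.26 SE, adjusted p = 0.000518, limma), and Adipoq had a log2 change of -0.27 ± 0.51 (SE, adjusted p = 0.793, limma). Of the 4 smooth muscle and 4 endothelial markers limma called 0, and at an unadjusted p under 0.05 there was 1 lower and 1 higher.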
